A study of Mus musculus with 16 samples.

Results

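Chga, Gpm6a, Dclk1, Crygn, Crispld1 and Enpp6 are 6 transcripts that were measured here in endothelial cells sorted from mouse bone. Apart from Crispld1, they are better known from nerve, lens, glia and hormone-secreting cells than from vessels. The members were chosen by their values in these same libraries, as genes with high or group-dependent levels that are unusual for endothelium. Their levels and differences below are therefore descriptions without a test of their own. All 6 genes were found in each of the 3 expression tables, among 38926 genes listed for the wild-type libraries, 21603 for the Yap1/Taz libraries and 38899 for the Lats2 libraries.

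The study asked how the Hippo pathway and low oxygen shape the growth of bone vessels, and it sequenced total RNA from sorted bone endothelial cells of C57BL/6 mice at about 3 weeks of age. Wild-type cells carried the fluorescent Cdh5-mT/nG reporter and came from the femoral metaphysis (mpEC, 3 libraries) or from the marrow of the diaphysis (bmEC, 3 libraries). In the Yap1/Taz experiment, animals homozygous for floxed Yap1 and floxed Wwtr1 (the gene of TAZ) were either negative for Cdh5-CreERT2 (control, 3 libraries) or positive for it (ECKO, 3 libraries), at postnatal day 21. In the Lats2 experiment, animals homozygous for floxed Lats2 were negative (control, 2 libraries) or positive (cKO, 2 libraries) for the same Cre. Tamoxifen, given to pups soon after birth, activates this Cre, and the Cdh5 promoter that drives it limits recombination to endothelial and other Cdh5-expressing cells. Controls in both experiments were littermates with the floxed alleles and without Cre, and animals of either sex were used, while the methods give male mice for wild-type bone.

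Vessels of the metaphysis lie close to the growth plate and to bone-forming cells, whereas the marrow cavity is drained by wide, thin-walled sinusoids, so the endothelium of a long bone is a mixture of specialised cells. LATS kinases phosphorylate the coactivators YAP and TAZ, which keeps them out of the nucleus and away from the TEAD factors through which they act on genes. Granins such as chromogranin A are packed into dense-core granules of neuroendocrine cells, and crystallins are structural proteins of the lens, yet several genes of both families are also transcribed elsewhere at low levels.

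Values are FPKM (fragments counted per length of transcript and per depth of the library), which put genes of different length on 1 scale per length. A fold change on the log2 scale means a difference of group means of log2(FPKM + 1), which understates the change of weakly expressed genes. A gene entered the test if its mean over the libraries of a comparison was at least 1 FPKM, and it was called if the adjusted p of the linear model limma, with Benjamini-Hochberg adjustment over all genes tested, was under 0.05. The most abundant gene named for a list is the one with the highest mean over all libraries of the comparison. The 3 tables were normalized separately, so no test crosses them.

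The targeted genes were read first as a check of the labels. Yap1 was at 1.07, 1.62 and 0.995 FPKM in the libraries labelled control and at 1.43, 1.03 and 0.989 FPKM in those labelled ECKO, and it differed by -0.04 on the log2 scale (limma with Benjamini-Hochberg, adjusted p = 0.934; groups overlapping). Wwtr1 was at 10.01, 9.88 and 10.3 FPKM in the libraries labelled control and at 15.3, 19.6 and 19.5 FPKM in those labelled ECKO, higher in 3 of 3 (log2 difference 0.78, limma with Benjamini-Hochberg, adjusted p = 0.0272). That call was lost with no filter and without ECKO replicate 2 or 3, where 0 genes were called higher. Centring the libraries on the endothelial genes described below shifts every log2 difference of this comparison by -0.38. In the main fit neither gene was called lower where the label names a deletion of both. The Yap1/Taz groups are therefore called by their labels, and any direction drawn from them is a direction between labels. In mutant bone endothelial cells the paper reports lower Yap1 and Wwtr1 by quantitative PCR and weaker Yap1 staining, as the labels say. Lats2 was at 23.4 and 24.0 FPKM in its controls and at 19.2 and 19.2 FPKM in the libraries labelled cKO, lower in 2 of 2 (log2 difference -0.29, limma with Benjamini-Hochberg, adjusted p = 0.125, not called). Wwtr1, which is not targeted there, was called higher in the libraries labelled Lats2 cKO (log2 difference 0.63, limma with Benjamini-Hochberg, adjusted p = 0.0257). FPKM of a whole gene also counts reads from exons outside a deleted part.

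All 12 genes of an endothelial identity list (Pecam1, Cdh5, Kdr, Tek and others) passed the filter in every comparison. Their summed level was 1812 to 2420 FPKM in the wild-type libraries, 725 to 763 in the libraries labelled Yap1/Taz control, 915 to 1061 in those labelled ECKO and 3202 to 3673 in the Lats2 libraries. Endothelial markers were thus present in each library, but markers of blood cells exceeded them in the wild-type libraries, with sums of 28311 to 60447 FPKM for 8 erythroid genes and 9465 to 27821 FPKM for 8 neutrophil genes. In the Yap1/Taz libraries these sums were 4457 to 6692 and 1654 to 3872 FPKM, also above the endothelial sums. Of the same sums in the Lats2 libraries, given below, only the erythroid sum of control replicate 1 was above the endothelial sums. Xist was above 3 FPKM with no Y-linked transcript in the replicate 1 libraries of both Lats2 groups, and the Y-linked Ddx3y was at 22.8 FPKM in control replicate 2 and 17.2 FPKM in cKO replicate 2. The sexes were therefore split between replicates in the same way in both Lats2 groups. In the wild-type libraries Xist was at 4.29 to 6.81 FPKM while Ddx3y, Kdm5d and Eif2s3y were listed at 0. The methods give male mice for wild-type bone, but also animals grouped irrespective of sex, and do not name the sex of the reporter mice. An exact 0 in this table need not mean absence. Uty, also Y-linked, stayed under 1 FPKM in the wild-type libraries but was not at 0 in every library. In the Yap1/Taz libraries Ddx3y lay between 11.4 and 17.7 FPKM.

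The genes lie on 5 chromosomes of GRCm38 in the GENCODE annotation. Gpm6a spans chr8:54954843-55060871 and Enpp6 spans chr8:46986887-47096762, both on the plus strand and 7.86 Mb apart. Chga spans chr12:102554969-102565028 (plus strand), Dclk1 chr3:55242364-55539068 (plus), Crispld1 chr1:17727045-17766344 (plus) and Crygn chr5:24751003-24758008 (minus). No exon base of Chga, Gpm6a, Crygn or Enpp6 is shared with another gene. An antisense gene covers 12.1% of the exon bases of Crispld1, and 0.745% of those of Dclk1 lie opposite another gene.

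The RefSeq promoter set used (GRCm38.p6, 250 bases before to 50 after a start site) holds 7 entries for 5 of the 6 genes, with no entry for Crispld1. The windows of Gpm6a, which has 2 entries, and of Crygn and Chga are shown because Gpm6a and Crygn moved together across the libraries and Chga moved against them in the Lats2 experiment. Capitals mark matches, on either strand, to a TEAD core (GGAATG or CATTCC, in 14.7% of all 32851 promoters), a HIF core (ACGTG or CACGT, in 19.6%) or an ETS core (CCGGAA or TTCCGG, in 14.9%). The upstream Gpm6a entry is chr8:54779184-54779483 and the downstream entry chr8:54954478-54954777, both on the plus strand. Both windows end before the gene span given above. The Crygn window is chr5:24757799-24758098 on the minus strand, and the Chga window is chr12:102554691-102554990 on the plus strand.
Gpm6a upstream: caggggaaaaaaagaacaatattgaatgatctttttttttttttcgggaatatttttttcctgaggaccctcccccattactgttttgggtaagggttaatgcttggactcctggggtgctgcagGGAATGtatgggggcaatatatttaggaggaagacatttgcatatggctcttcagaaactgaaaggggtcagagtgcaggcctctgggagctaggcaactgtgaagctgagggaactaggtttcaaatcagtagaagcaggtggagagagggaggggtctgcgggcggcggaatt
Gpm6a downstream: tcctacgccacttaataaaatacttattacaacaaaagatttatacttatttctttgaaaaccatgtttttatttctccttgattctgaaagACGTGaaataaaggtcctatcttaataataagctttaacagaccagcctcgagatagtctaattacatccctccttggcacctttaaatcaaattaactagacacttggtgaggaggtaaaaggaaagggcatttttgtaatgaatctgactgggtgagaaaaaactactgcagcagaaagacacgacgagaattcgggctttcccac
Crygn: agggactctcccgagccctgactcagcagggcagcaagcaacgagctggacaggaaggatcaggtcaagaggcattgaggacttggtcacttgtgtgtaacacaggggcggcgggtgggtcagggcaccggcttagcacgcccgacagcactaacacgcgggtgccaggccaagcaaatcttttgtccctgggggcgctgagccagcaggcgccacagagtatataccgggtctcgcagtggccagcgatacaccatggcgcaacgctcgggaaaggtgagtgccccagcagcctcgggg
Chga: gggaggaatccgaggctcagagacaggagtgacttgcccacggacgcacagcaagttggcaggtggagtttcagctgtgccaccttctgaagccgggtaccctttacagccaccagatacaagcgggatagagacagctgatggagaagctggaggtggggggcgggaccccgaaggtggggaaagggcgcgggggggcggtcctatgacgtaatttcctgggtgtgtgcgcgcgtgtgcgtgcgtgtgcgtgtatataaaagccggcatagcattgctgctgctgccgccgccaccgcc
The upstream Gpm6a window holds 1 TEAD core, which begins at base -125 from the start site, and the downstream window holds 1 HIF core at base -158. The windows of Crygn and Chga hold none of the 3 cores. Of the remaining entries, the downstream Dclk1 promoter (chr3:55461478-55461777, plus strand) has an ETS core at base 14 after the start, and the upstream Dclk1 and the Enpp6 windows have none. A match describes the letters only.

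In wild-type bone, Gpm6a, Crygn and Dclk1 were higher in the bmEC than in the mpEC libraries, Crispld1 was slightly lower, Enpp6 was level and Chga was listed at 0. The comparison asks how the endothelium of the marrow cavity differs from that below the growth plate. limma called 3 of the 5 members tested, all higher in bmEC, where 23.5% of the 11422 genes tested were called. Groups did not overlap for 4 of the 5 members tested and for 41.3% of all genes tested.

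**Figure D1:**
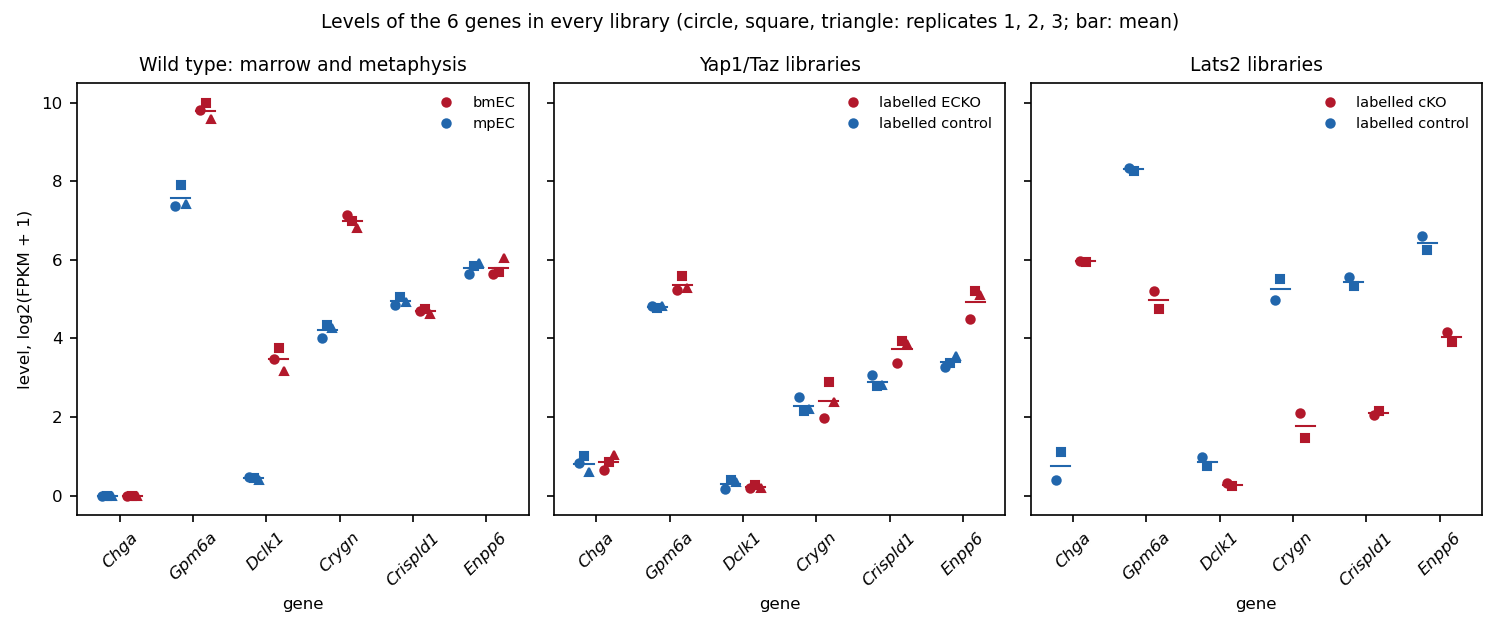
Level of each of the 6 genes as log2(FPKM + 1) in every library, with 1 panel for each separately normalized table; points are libraries and bars are group means. Gpm6a stands highest in the bmEC libraries (768 to 1027 FPKM), and Chga is far above its other values in the libraries labelled Lats2 cKO (61.1 and 61.7 FPKM).

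Gpm6a encodes glycoprotein M6a, a membrane protein of the proteolipid family that is known from neurons. Its level was 905, 1027 and 768 FPKM in bmEC replicates 1 to 3 and 166, 239.6 and 169.8 FPKM in mpEC replicates 1 to 3. Every marrow library was above every metaphyseal library, and the lowest marrow value was over 3 times the highest metaphyseal value. Gpm6a ranked between 50 and 58 among all genes listed in the bmEC libraries and between 225 and 392 in the mpEC libraries. The group means were 900.1 ± 129.8 FPKM (SD, n = 3) and 192 ± 41.5 FPKM (SD, n = 3), a ratio of 4.69, or 2.24 (SE 0.17) on the log2 scale. Set against the geometric mean of the 12 endothelial genes in the same library, Gpm6a stood at 617 to 863% in bmEC and at 139 to 182% in mpEC. In these bulk libraries, fewer cells of a type and less RNA per cell cannot be told apart.

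The closely related Gpm6b stayed under 1 FPKM in all 16 libraries of the series. On the FPKM scale Gpm6a was therefore far above Gpm6b in the bmEC and in the mpEC libraries.

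Crygn encodes gamma N crystallin, which belongs to the beta and gamma crystallins of the lens. It was at 142, 126 and 112 FPKM in the bmEC libraries and at 15.0, 19.4 and 18.4 FPKM in the mpEC libraries. Again the groups were far apart, and each marrow value exceeded the highest metaphyseal value more than 5-fold. The means were 127 ± 14.7 and 17.6 ± 2.27 FPKM (SD, n = 3 each), a ratio of 7.20, with a log2 difference of 2.78 (SE 0.12). Among 16 crystallin genes, 13 stayed under 1 FPKM in every wild-type library, and Crybb3, between 6.11 and 11.3 FPKM, was the only other crystallin tested. Crygn thus carried most of the crystallin signal, which summed to 122 to 153 FPKM in bmEC and 23.6 to 27.7 FPKM in mpEC.

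Dclk1 encodes doublecortin-like kinase 1, a microtubule-binding kinase used as a marker of tuft cells in the gut. Its level was 10.1, 12.5 and 8.07 FPKM in bmEC and 0.392, 0.363 and 0.309 FPKM in mpEC. The gene was at a moderate level in all marrow libraries and near the lower end in all metaphyseal libraries, with no overlap. The means, 10.2 ± 2.19 and 0.355 ± 0.0422 FPKM (SD, n = 3 each), stood in a ratio of 28.8, the widest of the 6 genes here, although Dclk1 had the lowest marrow level of the 5 that were detected. Its log2 difference was 3.03 (SE 0.16). Dclk1 passed the filter only through the marrow libraries. It was also called with no filter, but it was chosen on these values, so neither call is a test of it. Other doublecortin genes gave no such picture: Dcx was listed at 0 in all 6 libraries, and Dclk2 was at 1.41 to 1.80 FPKM in bmEC and 2.00 to 2.28 FPKM in mpEC and was not called. Besides Dclk1, 6 of 7 tuft cell genes stayed under 1 FPKM, Pou2f3 and Trpm5 among them.

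Crispld1 encodes a secreted protein with a CAP domain, the fold shared by cysteine-rich secretory proteins. It was at 24.9, 25.9 and 23.7 FPKM in bmEC and at 28.1, 32.5 and 29.6 FPKM in mpEC. All marrow values lay just below all metaphyseal values, with means of 24.8 ± 1.09 and 30.1 ± 2.25 FPKM (SD, n = 3 each). The log2 difference of -0.27 (SE 0.09) was not called, and under quantile normalization it was. The related Crispld2 fell by 0.61 on the log2 scale in bmEC, from 2.10 to 3.08 FPKM in mpEC to 1.25 to 1.31 FPKM (limma with Benjamini-Hochberg, adjusted p = 0.0168; lower in 3 of 3). With the libraries centred on the endothelial genes the call is lost, at a log2 difference of -0.66.

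Enpp6 encodes a phosphodiesterase on the cell surface that cleaves choline phosphate from lipids and is known as a marker of newly forming oligodendrocytes. It was at 48.8, 50.3 and 65.6 FPKM in bmEC and at 49.0, 57.0 and 59.4 FPKM in mpEC. The groups overlapped, and their means of 54.9 ± 9.29 and 55.1 ± 5.43 FPKM (SD, n = 3 each) differed by less than the spread between replicates (log2 difference -0.01, SE 0.13). Enpp6 was the most abundant of the 7 Enpp genes in these libraries. Its relatives were less even: limma called Enpp4 and Enpp5 higher and Enpp2 and Enpp3 lower in bmEC. Of the 12 oligodendrocyte genes, 11 stayed under 1 FPKM, with Sox10, Olig1 and Olig2 at 0, and limma called 0 of the 1 tested, Cnp (1 at an unadjusted p under 0.05). Under quantile normalization Cnp was called lower in bmEC.

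Chga, the gene of chromogranin A, was listed at 0 in all 6 wild-type libraries. An exact 0 in such a table need not mean that no transcript was present. Of the 13795 genes with a mean above 0.5 FPKM in the Lats2 controls, 370 (2.68%), Chga among them, were listed at 0 in all 6 wild-type libraries, and of 76 ribosomal protein genes 0 were. No fold change is given for Chga here. Of the 20 granin and dense-core vesicle genes, Chga included, 3 were tested, and Cpe, the gene of carboxypeptidase E, was called lower in bmEC (0.233, 1.62 and 0.163 FPKM against 4.38, 2.93 and 2.02 FPKM in mpEC).

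The order of levels per length in bmEC was Gpm6a, Crygn, Enpp6, Crispld1, Dclk1 and Chga, with no overlap between the libraries of 1 gene and those of the next. In mpEC the order was Gpm6a, Enpp6, Crispld1, Crygn, Dclk1 and Chga, again with no overlap. Crygn came second in bmEC and after Enpp6 and Crispld1 in mpEC.

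Some neuronal and bone-cell genes were lower in bmEC, where Gpm6a, Crygn and Dclk1 were higher. Of 13 neuronal genes 9 stayed under 1 FPKM and 4 were tested, and 3 were lower in bmEC: Gap43, Stmn2 and Uchl1. Gap43 was at 0.239, 0.208 and 0.167 FPKM in bmEC and at 17.5, 12.6 and 18.2 FPKM in mpEC, and it fell by 3.81 on the log2 scale (limma with Benjamini-Hochberg, adjusted p = 1.16e-05; lower in 3 of 3). The summed neuronal level was 11.2, 12.8 and 11.05 FPKM in bmEC and 47.5, 38.3 and 46.0 FPKM in mpEC, with Stmn2 most abundant and Nefl and Prph at 0. Among osteoblast genes 6 of 8 tested were lower in bmEC, with sums of 49.4, 60.9 and 45.6 FPKM against 1001, 465 and 260 FPKM in mpEC, Bglap being the most abundant over all 6 libraries and Ibsp in each bmEC library (38.4 to 46.8 FPKM). Ibsp and Alpl were not called. All 3 chondrocyte genes tested were lower, with sums of 0.0682, 0.182 and 0.0116 FPKM against 20.3, 19.7 and 19.2 FPKM, Col2a1 being the most abundant and at 0 in bmEC. Their part in the levels of the 6 members was not tested. Of 14 neuroendocrine and 9 Schwann and glial genes, 0 passed the filter here or in the other comparisons.

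The other lists are given for the cells that could share the sort with marrow endothelium. Which cells of the bulk libraries hold the Gpm6a transcript was not tested. Of 12 endothelial identity genes limma called 4 higher (Kdr, Cldn5, Tek and Erg) and 3 lower (Emcn, Tie1 and Pecam1) in bmEC. All 11 genes of a metaphyseal and marrow panel were called, 7 higher and 4 lower, but the study picked them on such libraries, so their direction is not independent, and the panel shares Kdr and Tek with the endothelial list. Mrc1 was the 1 of 7 macrophage genes called higher (sums 427, 418 and 349.5 FPKM in bmEC and 180, 162 and 135 FPKM in mpEC, Mrc1 most abundant). Stromal and pericyte genes had 2 of 6 higher (Lepr and Adipoq) and 1 lower (Kitl), with sums of 51.8, 109 and 70.9 FPKM in bmEC and 83.7, 84.4 and 95.6 FPKM in mpEC (Cxcl12 most abundant), and Kit was the 1 of 4 mast cell genes called lower (78.3, 31.1 and 18.4 against 113, 34.9 and 45.6 FPKM, Mcpt8 most abundant). limma called 0 of 8 neutrophil genes (4 at an unadjusted p under 0.05, and 3 lower under quantile normalization), 0 of 8 erythroid genes (1), 0 of 7 B cell genes (1) and 0 of 6 megakaryocyte genes (0). Dissociation stress genes, which respond to tissue digestion and sorting, had 2 of 9 called higher in bmEC, Jun and Junb (log2 differences 1.31 and 1.11), with sums of 2617, 3058 and 969 FPKM in bmEC and 799, 819 and 1173 FPKM in mpEC, Fos being the most abundant. Their part in the levels of the 6 members was not tested.

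In the Lats2 experiment the groups of all 6 members were apart, with Chga higher and the others lower. Chga went from near the detection limit to a clear level in the libraries labelled cKO, while Gpm6a, Crygn, Crispld1, Enpp6 and Dclk1 were lower there. The comparison asks what the loss of the kinase Lats2 does to bone endothelium. limma called 5 of the 5 members tested, 1 higher and 4 lower, where 21.7% of the 12437 genes tested were called, and Dclk1 was under the filter. With 2 libraries a group, groups did not overlap for 5 of the 5 members tested and for 68.2% of all genes tested. Each fit with a library left out has a lone library in 1 group, whose spread is taken from the other group. Without cKO replicate 1 limma called 5 members and 2694 of all genes, and without cKO replicate 2 it called 5 members and 932 genes, against 2700 genes with all libraries. With control replicate 1 left out, limma called 0 of the 5 members and 0 of all genes (5 members and 2724 genes at an unadjusted p under 0.05), and with control replicate 2 left out also 0 and 0 (5 members and 2877 genes unadjusted). The log2 differences with 1 control left out were about as large: 4.85 and 5.56 for Chga, -3.28 and -3.37 for Gpm6a, -3.74 and -3.21 for Crygn, -3.23 and -3.46 for Crispld1 and -2.22 and -2.57 for Enpp6.

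**Figure D2:**
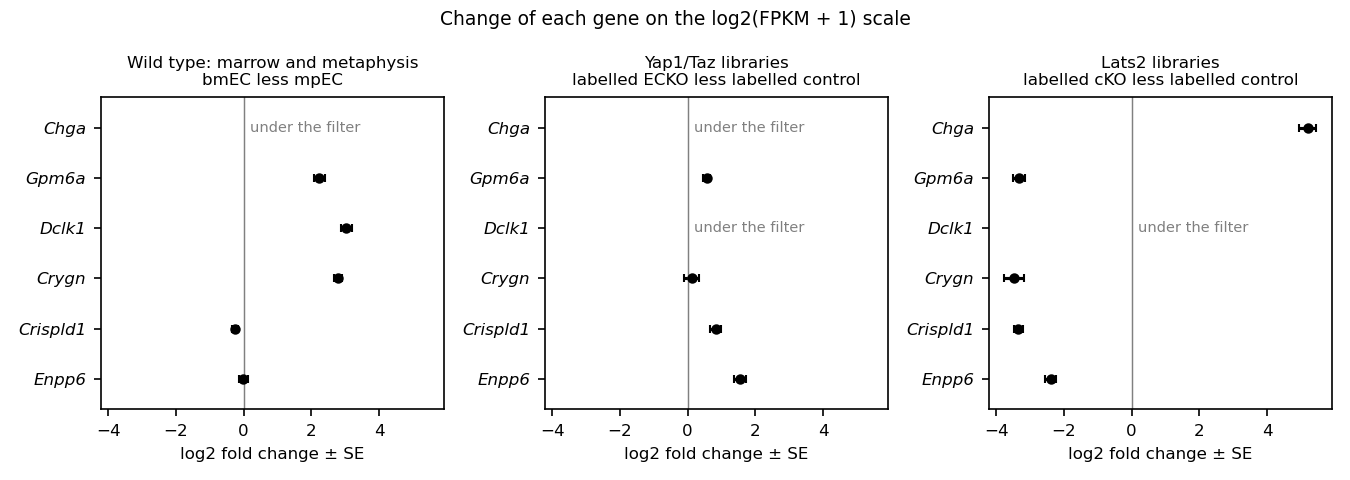
Difference of each gene between groups on the log2(FPKM + 1) scale with its standard error, for the 3 comparisons; genes under 1 FPKM on average have no point. Chga is the only point to the right of 0 in the Lats2 panel (5.21), and the other 4 lie between -3.47 and -2.40.

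Chga encodes chromogranin A, an acidic protein of dense-core granules that is also a precursor of bioactive peptides and a routine marker of neuroendocrine cells. Its level was 0.320 and 1.16 FPKM in control replicates 1 and 2 and 61.7 and 61.1 FPKM in cKO replicates 1 and 2. Both controls were close to 0 and both cKO libraries were almost equal. The control values rest on 3 and 13 reads recovered from the steps of the FPKM values, and the cKO values on 438 and 573 reads. The means were 0.741 ± 0.595 and 61.4 ± 0.433 FPKM (SD, n = 2 each), a ratio of 82.8, with a log2 difference of 5.21 (SE 0.25). The ratio is loose, because it was 52.8 without control replicate 1 and 192 without control replicate 2. Chga passed the filter only through the cKO libraries. It was also called with no filter, but it was chosen on these values, so neither call is a test of it. Against the endothelial geometric mean, Chga stood at 0.153 and 0.498% in the controls and at 29.0 and 30.6% in the cKO libraries.

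The rest of the granin system did not follow Chga as a whole. Of 20 granin and dense-core vesicle genes 4 were tested, and limma called 2 of them, Chga and Cpe, both higher. Cpe, whose enzyme trims prohormones, was at 4.43 and 8.38 FPKM in the controls and at 72.5 and 55.9 FPKM in the cKO libraries (log2 difference 3.18, limma with Benjamini-Hochberg, adjusted p = 0.00808; higher in 2 of 2). Pam, which amidates peptides, was at 8.87 and 8.51 FPKM in the controls and at 9.81 and 11.3 FPKM in the cKO libraries and was not called. Chgb and Scg2, the other classical granins, were listed at 0 in all 4 libraries, and 15 of the 20 genes stayed under 1 FPKM. All 14 neuroendocrine identity genes were under 1 FPKM in every Lats2 library, with 8 of them, Insm1 and Neurod1 included, at 0. Chga therefore stood at 61.1 FPKM or more in libraries where those defining markers were at or near 0.

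**Figure D3:**
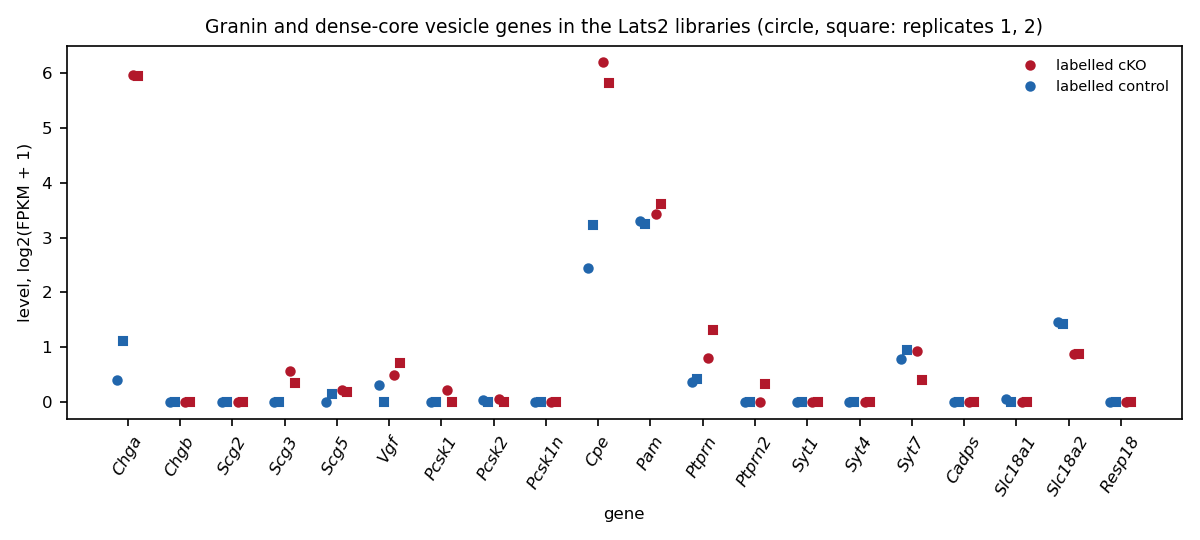
Level of 20 granin and dense-core vesicle genes as log2(FPKM + 1) in the 4 Lats2 libraries. Chga and Cpe are the only genes with both cKO points well above both control points, and Chgb and Scg2 lie at 0.

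Gpm6a was at 326 and 305 FPKM in the Lats2 controls and at 35.8 and 26.0 FPKM in the libraries labelled cKO. Both controls were high, at ranks 110 and 118 among all genes, and both cKO libraries were lower, at ranks 1979 and 2754. The means of 315 ± 14.7 and 30.9 ± 6.93 FPKM (SD, n = 2 each) make Gpm6a 10.2-fold lower, and it fell by 3.33 (SE 0.18) on the log2 scale. As a share of the endothelial geometric mean it went from 155 and 131% to 16.8 and 13.02%.

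Crygn was at 30.8 and 44.9 FPKM in the controls and at 3.30 and 1.75 FPKM in the cKO libraries. The groups were far apart, and the cKO values rest on 10 and 7 recovered reads, so their ratio to each other is loose. The means were 37.8 ± 9.92 and 2.53 ± 1.10 FPKM (SD, n = 2 each), which is 15.0-fold lower, and the log2 value fell by 3.47 (SE 0.28). Of the 16 crystallins, 9 were listed at 0 in all 4 libraries, and Crybb3 was the only other crystallin tested, between 2.16 and 5.51 FPKM and not called.

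Crispld1 was at 46.3 and 39.4 FPKM in the controls and at 3.17 and 3.43 FPKM in the cKO libraries. This gene, which barely differed between marrow and metaphysis, was thus clearly split by the Lats2 labels. Its means of 42.8 ± 4.88 and 3.30 ± 0.182 FPKM (SD, n = 2 each) put it 12.99-fold lower, and it fell by 3.35 (SE 0.14) on the log2 scale. Of 4 CAP genes tested limma called Crispld1, a member chosen on these values, and not Glipr1, Glipr2 or Pi16.

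Enpp6 was at 96.5 and 75.5 FPKM in the controls and at 16.9 and 14.1 FPKM in the cKO libraries. Both cKO values were far under both control values, and the means of 86.0 ± 14.9 and 15.5 ± 1.98 FPKM (SD, n = 2 each) made Enpp6 5.56-fold lower. On the log2 scale it fell by 2.40 (SE 0.17). Within the Enpp family, Enpp4 was the only other gene called, from 19.7 and 21.6 FPKM to 13.1 and 10.8 FPKM. Of 12 tested genes of choline and phosphocholine metabolism, limma called 5 lower (Enpp6, Pnpla7, Gpcpd1, Slc44a2 and Cept1) and 0 higher, and with the libraries centred on the endothelial genes it called 1 lower, while the log2 differences of the other 4 went from between -0.84 and -0.55 to between -0.74 and -0.45. Of the oligodendrocyte genes, Sox10, Olig1 and Olig2 were listed at 0, and Gpr17 was the only 1 called, at 5.07 and 6.37 FPKM in the controls and 9.69 and 10.6 FPKM in the cKO libraries. Cnp, the other oligodendrocyte gene tested, was lower, at 37.2 and 35.2 FPKM in the controls and 28.0 and 25.4 FPKM in the cKO libraries, and was not called (log2 difference -0.43; limma with Benjamini-Hochberg, adjusted p = 0.0595), although it was under quantile normalization.

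Dclk1 stayed under the filter at 0.959 and 0.686 FPKM in the controls and 0.245 and 0.186 FPKM in the cKO libraries. The groups did not overlap, and the means of 0.822 ± 0.193 and 0.215 ± 0.0419 FPKM (SD, n = 2 each) stood 3.82-fold apart. The cKO values rest on 14 and 14 reads. Its relative Dclk2 was called lower, from 4.32 and 4.65 FPKM to 2.10 and 2.18 FPKM, by -0.80 on the log2 scale (-0.70 and not called with the libraries centred on the endothelial genes), and 6 of 7 tuft cell genes stayed under 1 FPKM.

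In the order of levels per length, the Lats2 controls had Gpm6a first, then Enpp6, with Crispld1 and Crygn overlapping (30.8 to 46.3 FPKM) and Dclk1 and Chga overlapping (0.320 to 1.16 FPKM). In the libraries labelled cKO, Chga came first, followed by Gpm6a and Enpp6, then Crispld1 and Crygn, whose values overlapped (1.75 to 3.43 FPKM), and Dclk1. Chga was thus the member whose place changed most.

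Many YAP/TAZ target genes were higher in the libraries labelled Lats2 cKO, beside the differences of the 6 members. Endothelial identity genes went both ways, with 1 of 12 higher (Pecam1, 0.85 on the log2 scale) and 2 lower (Tek -1.35 and Kdr -0.95), a share near that of all genes. Of 16 YAP/TAZ target genes tested limma called 8 higher and 1 lower (Axl), and the summed level was 248 and 258 FPKM in the controls and 939 and 1488 FPKM in the cKO libraries, Cyr61 being the most abundant. In bmEC 2 of 15 were higher and 3 lower. The study names Cyr61, Thbs1, Ddah1, Lhfp and Ctgf as increased in the Lats2 mutant cells, so their direction in these libraries is not independent. Uchl1 was the 1 of 4 neuronal genes called, higher, again a share near that of all genes, with summed neuronal levels of 12.6 and 14.3 FPKM in the controls and 31.7 and 37.3 FPKM in the cKO libraries, Uchl1 most abundant and Snap25, Elavl3 and Elavl4 at 0. Of 11 genes of a metaphyseal and marrow panel, 6 (Sele, Vcam1, Sepp1, Flt4, Tek and Kdr) were lower and 2 (Esm1 and Cd34) higher. Those 6 were called higher in bmEC and those 2 lower. The paper reports marrow endothelial genes as reduced in the Lats2 mutant cells, so this direction is not independent.

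B cell, neutrophil, erythroid and megakaryocyte lists had negative median log2 differences beside the lower Gpm6a, Crygn, Crispld1 and Enpp6, where the median of all genes was -0.003. All 6 B cell genes tested were called lower (median -1.92), with sums of 286 and 233 FPKM in the controls and 65.5 and 41.5 FPKM in the cKO libraries, Ighm being the most abundant. Of 8 neutrophil genes 6 were lower (median -1.75; sums 2925 and 1956 against 855 and 717 FPKM, S100a8 most abundant). Of 8 erythroid genes 2 were called lower (Slc4a1 and Klf1), 7 were at an unadjusted p under 0.05 and 5 were called lower with the libraries centred on the endothelial genes (median -2.63; 3684 and 2454 against 1398 and 243 FPKM, Hbb-bs most abundant). Macrophage genes had 1 of 6 lower (Mrc1, the most abundant; median log2 difference of the list 0.80; sums 172 and 149.5 against 71.95 and 31.6 FPKM) and megakaryocyte genes 1 of 5 (Pf4, the most abundant; 2 with endothelial centring; median -1.49; 29.9 and 114 against 12.4 and 9.72 FPKM). Stromal and pericyte genes had 3 of 7 higher (Acta2, Rgs5 and Kitl; sums 54.2 and 67.7 against 112 and 109 FPKM, Cxcl12 most abundant), and osteoblast genes 1 of 6 higher (Spp1), while the 5 others were lower and not called (median -0.50 with Spp1; 84.9 and 13.9 against 43.6 and 69.4 FPKM). Mast cell genes had 1 of 6 higher (Kit) and 1 lower (Mcpt8), with a median log2 difference of 1.25 and sums of 12.2 and 20.8 against 31.2 and 73.7 FPKM. With the libraries centred on the endothelial genes, 5 stromal and pericyte genes and 1 macrophage gene were called higher. No gene of these lists was at 0 in all 4 libraries, and their part in the levels of the 6 members was not tested.

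**Figure D4:**
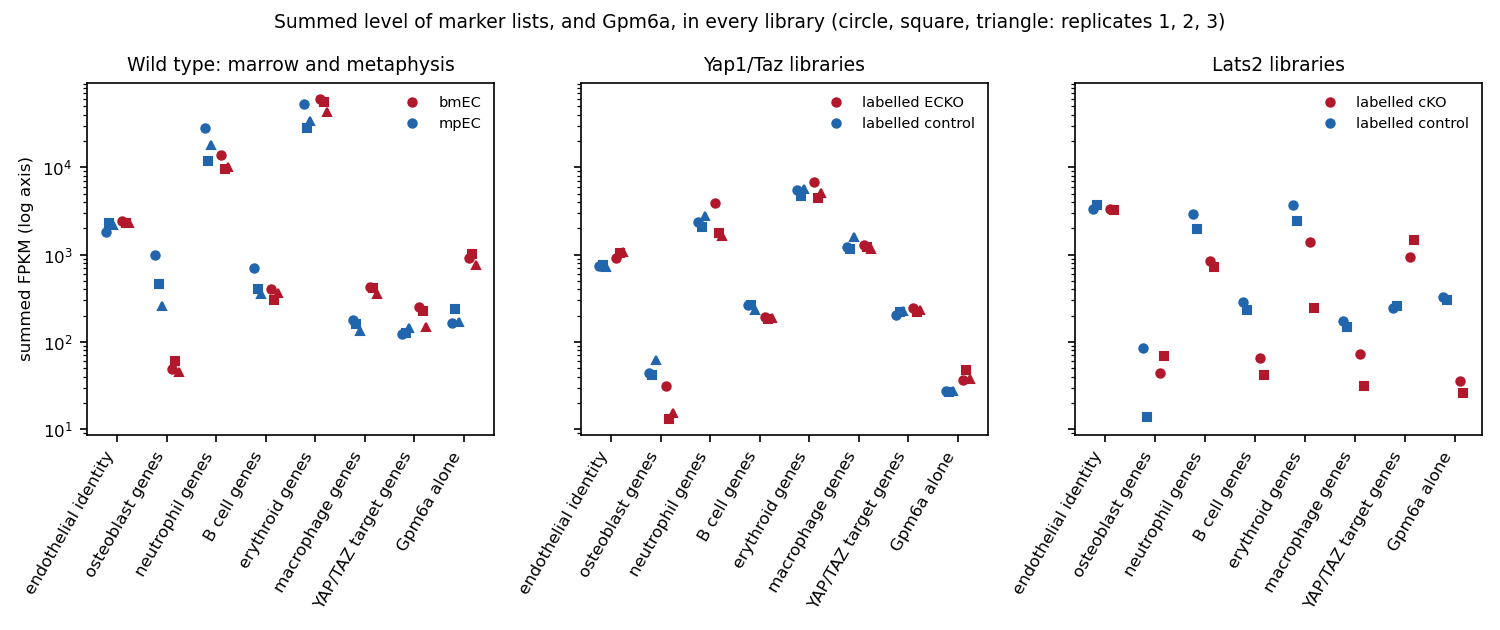
Summed FPKM of 7 marker lists and the FPKM of Gpm6a alone in every library, on a log axis, with 1 panel for each separately normalized table. Endothelial sums stay between 3202 and 3673 FPKM in the Lats2 table, whereas B cell sums (286 and 233 against 65.5 and 41.5 FPKM) and Gpm6a (326 and 305 against 35.8 and 26.0 FPKM) are both lower in the libraries labelled Lats2 cKO.

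In the Yap1/Taz experiment the differences were smaller, and Enpp6, Crispld1 and Gpm6a were higher in the libraries labelled ECKO. Crygn, Dclk1 and Chga overlapped between the labels. The comparison was meant to ask what the loss of Yap1 and TAZ does. Whole-gene levels of those genes in these libraries do not show that loss, although the quantitative PCR of the paper does. limma called 3 of the 4 members tested, all higher, where 1.31% of the 11320 genes tested were called. Groups did not overlap for 3 of the 4 members tested and for 23.6% of all genes tested. Chga and Dclk1 were under the filter. The calls depended on the fit. With no filter limma called 0 members and 1 of all genes, and with no trend 1 member and 17 genes. At the threshold of the study methods it called 0 members and 1 gene. The paper describes its gene list for this comparison at a less strict adjusted p than its methods give. Each time 3 members were at an unadjusted p under 0.05. The calls also changed when a library was left out. Without ECKO replicate 2 limma called 0 members and 1 of all genes, and without ECKO replicate 3 also 0 and 1. In both, 3 members were at an unadjusted p under 0.05. The log2 differences in those fits were 1.398 and 1.44 for Enpp6, 0.72 and 0.76 for Crispld1 and 0.45 and 0.60 for Gpm6a. Without control replicate 1 it called 2 members and 114 genes, without control replicate 2 1 member and 20 genes, without control replicate 3 1 member and 14 genes, and without ECKO replicate 1 3 members and 293 genes.

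Enpp6 was at 8.74, 9.35 and 10.8 FPKM in the libraries labelled control and at 21.5, 36.0 and 33.7 FPKM in those labelled ECKO. All 3 ECKO values were about double the highest control value or more, and ECKO replicate 1 was the lowest of them. The means of 9.63 ± 1.06 and 30.4 ± 7.84 FPKM (SD, n = 3 each) stood in a ratio of 3.16, and the log2 difference was 1.53 (SE 0.18). Against the endothelial geometric mean of the same library Enpp6 stood at 15.0 to 18.9% and at 30.8 to 45.7%, which do not overlap. Enpp6, a member chosen on these values, was the only gene called of 6 tested in the Enpp family and of 11 tested in choline metabolism. With the libraries centred on the endothelial genes, which lowered the median of all genes from -0.005 to -0.39, 2 Enpp genes and 4 choline genes were also called, lower, where 5637 of the 11320 genes tested were.

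Crispld1 was at 7.42, 5.89 and 6.08 FPKM in the libraries labelled control and at 9.34, 14.4 and 13.6 FPKM in those labelled ECKO. ECKO replicate 1 was again the closest to the controls. The means were 6.46 ± 0.834 and 12.4 ± 2.70 FPKM (SD, n = 3 each), a ratio of 1.92, with a log2 difference of 0.83 (SE 0.16). Crispld1, a member chosen on these values, was the only gene called among the 5 CAP genes tested. Glipr1, the most abundant, was at 53.0 to 56.1 FPKM against 68.4 to 82.8 FPKM.

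Gpm6a was at 27.5, 26.7 and 27.2 FPKM in the libraries labelled control and at 36.8, 47.3 and 38.1 FPKM in those labelled ECKO. The controls were nearly identical and all ECKO libraries were above them, with means of 27.1 ± 0.420 and 40.7 ± 5.69 FPKM (SD, n = 3 each), a ratio of 1.503 and a log2 difference of 0.56 (SE 0.11). The geometric mean of the endothelial genes was higher in the same libraries, and relative to it Gpm6a overlapped between the labels (44.8 to 47.6% and 47.0 to 59.9%). Of the 12 endothelial genes limma called 1, Cldn5 (10 at an unadjusted p under 0.05). Their median log2 difference was 0.29 beside a median of -0.005 over all genes tested. With the libraries centred on those genes, Gpm6a differed by 0.18 and was not called, while Crispld1 (0.45) and Enpp6 (1.15) were still called.

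Crygn was at 4.73, 3.44 and 3.63 FPKM in the libraries labelled control, from 18, 19 and 18 recovered reads, and at 2.94, 6.40 and 4.17 FPKM in those labelled ECKO, from 11, 30 and 19 reads. The ranges overlapped, and the log2 difference of 0.12 (SE 0.22) turned negative when the libraries were centred on the endothelial genes (-0.27) or ECKO replicate 2 was left out (-0.12). Chga was at 0.784, 1.00 and 0.515 FPKM against 0.569, 0.818 and 1.03 FPKM, from 5 to 13 reads a library. Dclk1 was at 0.114, 0.324 and 0.274 FPKM against 0.148, 0.197 and 0.135 FPKM. Neither Chga nor Dclk1 could be told apart between the labels at this depth.

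The order of Gpm6a, Enpp6, Crispld1 and Crygn in levels per length was that of mpEC. In the libraries labelled control Gpm6a came first, followed by Enpp6 and Crispld1, which did not overlap, then Crygn, Chga and Dclk1. In those labelled ECKO Gpm6a (36.8 to 47.3 FPKM) was followed by Enpp6 (21.5 to 36.0 FPKM), Crispld1 and Crygn, again without overlap, and then by Chga and Dclk1. Gpm6a, at 26.7 to 47.3 FPKM, stood below its values in the wild-type libraries and the Lats2 controls and near those labelled Lats2 cKO (35.8 and 26.0 FPKM), levels set across separately normalized tables.

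Beside these members, some osteoblast genes were lower in the libraries labelled ECKO. Osteoblast genes had 3 of 7 lower (median log2 difference of the list -1.11; sums of 44.5, 42.2 and 61.8 FPKM in the libraries labelled control and 31.4, 13.2 and 15.3 FPKM in those labelled ECKO, Col1a1 most abundant and Dmp1 at 0), and limma called 0 of 1 chondrocyte genes, Col2a1 (log2 difference -1.32; 1 at an unadjusted p under 0.05). B cell sums were 264, 267 and 232 FPKM against 191, 185 and 190 FPKM (Cd79b most abundant), with 0 of 7 genes called by limma, 7 at an unadjusted p under 0.05 and a median log2 difference of -0.45. Of 13 YAP/TAZ target genes tested limma called 0 (4 at an unadjusted p under 0.05), Axl being the most abundant, with sums of 204 to 228 FPKM against 221 to 246 FPKM. Ppbp was the 1 of 6 megakaryocyte genes called higher (sums 162, 159 and 178 against 174, 196 and 197 FPKM, Pf4 most abundant). limma called 0 of 7 macrophage genes (1 at an unadjusted p under 0.05), 0 of 8 neutrophil genes (0), 0 of 8 erythroid genes (0), 0 of 4 mast cell genes (0) and 0 of 6 stromal genes (2). With the libraries centred on the endothelial genes, where 5637 of all 11320 genes were called lower, limma called lower 7 of 7 B cell, 6 of 7 osteoblast, 1 of 1 chondrocyte, 5 of 7 macrophage, 4 of 13 YAP/TAZ target, 2 of 6 megakaryocyte, 2 of 4 mast cell, 2 of 6 stromal, 1 of 8 neutrophil and 0 of 8 erythroid genes. Dissociation stress genes had 1 of 10 called higher, Hspa1b (log2 difference 0.83), with 6 at an unadjusted p under 0.05 and a median of 0.24 (sums 1867, 1871 and 1927 FPKM in the libraries labelled control and 1944, 2346 and 2388 FPKM in those labelled ECKO, Junb most abundant). With endothelial centring 1 of them was called higher and 5 lower. The part of these lists in the higher Enpp6, Crispld1 and Gpm6a was not tested.

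Across all 16 libraries, Gpm6a and Crygn had the most similar patterns of any pair of members. Likeness was Pearson's r of log2(FPKM + 1) after the mean of each table was subtracted, over 9069 genes that passed the filter in all 3 tables. It is a description, because the libraries fall into groups and share tables. The r was 0.98 for Gpm6a and Crygn and 0.91 for Crispld1 and Enpp6, and it was -0.93 for Chga and Crispld1. Dclk1 was near 0 with Crispld1 (0.048) and with Enpp6 (0.092).

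The genes most like Gpm6a were Tfpi, which encodes an inhibitor of tissue factor (r = 0.99), F8, which encodes coagulation factor VIII (0.99), then Vstm4, Afap1l2 and Cd55 (0.99 each). For Crygn they included Tollip (0.99), Tfpi (0.98), Adamts5 and Col6a3. All 5 neighbours of Gpm6a, picked for this likeness over the same libraries, were higher in bmEC and lower in the libraries labelled Lats2 cKO, as Gpm6a was. Tfpi, for instance, differed by 1.93 in the marrow comparison and fell by 2.87 in the Lats2 comparison.

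For Dclk1 the most similar genes were 1700025G04Rik (0.98), Agmo, Cnbp, Fmo1 and Nedd4l, for Crispld1 Axin1 (0.95), Antxr2, Ube2e3, Stard10 and Sgk3, and for Enpp6 Parp6 (0.97), Npr1, Crispld1 itself, Itga8 and Rcbtb2. Chga was most like Fabp5, which encodes a fatty acid binding protein (0.97), then Anxa6, Mtmr10, Cdipt and Lrrfip1. The 5 genes like Chga differed by 0.67 to 2.55 in the Lats2 comparison and by at most 0.21 in the others, so the match rests on the 4 Lats2 libraries.

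**Figure D5:**
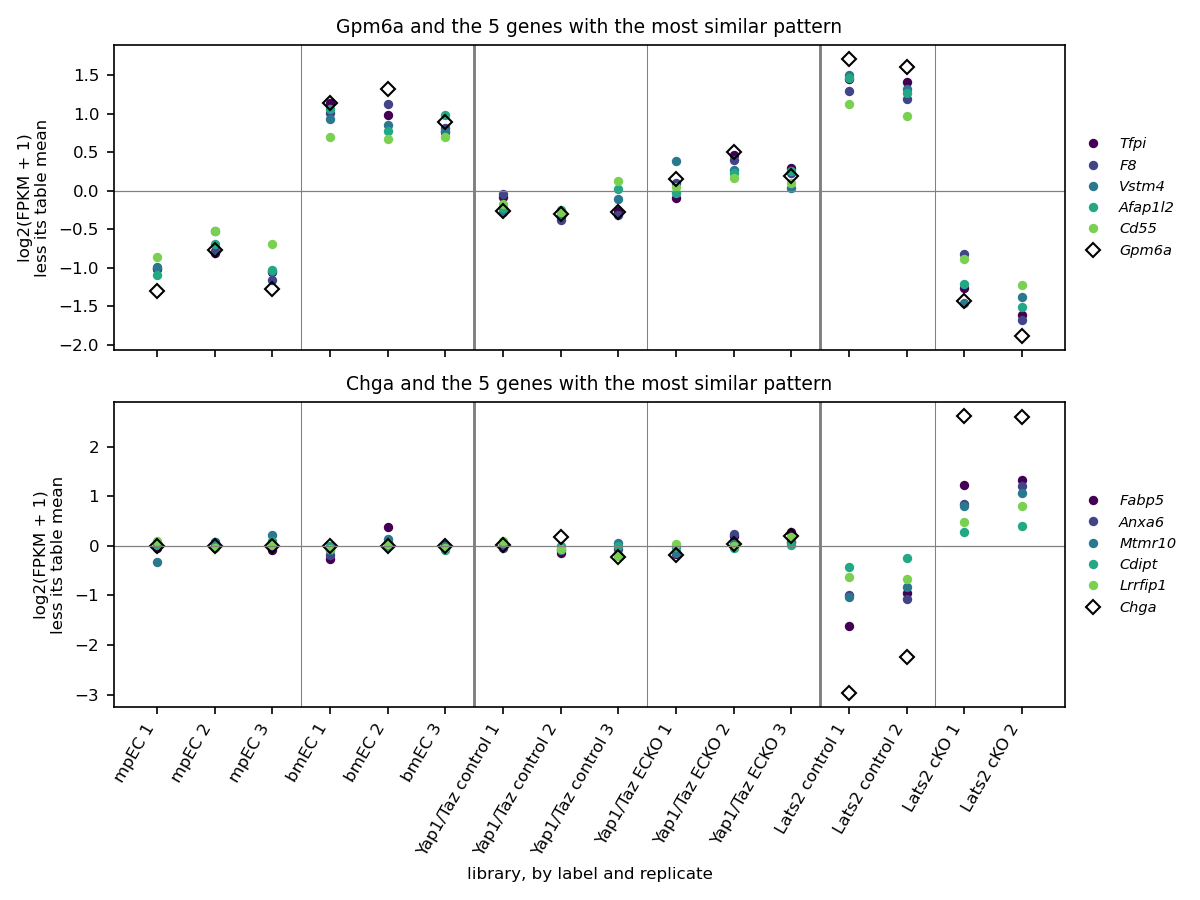
log2(FPKM + 1) less the mean of its table for Gpm6a and for Chga (open diamonds) and the 5 genes most like each (filled points), in the 16 libraries; thick lines part the 3 tables. Gpm6a and its neighbours are high in bmEC and in the Lats2 controls and low in mpEC and in the libraries labelled Lats2 cKO, whereas the Chga points leave 0 by a wide margin only in the Lats2 table.

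Genes beside the 6 members on the chromosome were chosen by position alone, and 1 of them was called in any comparison. Of the protein-coding genes flanking Gpm6a, Wdr17 stayed at or under 0.297 FPKM, under the filter, and Adam29 was listed at 0 in every library. Those flanking Crispld1 were as low: Pi15 did not pass 0.140 FPKM and Crisp4 was listed at 0. Beside Chga, Golga5 was at a mean of 22.9 FPKM in the Lats2 controls and 19.4 FPKM in the libraries labelled cKO, and Itpk1 fell by 0.52 on the log2 scale, from a mean of 9.72 to 6.47 FPKM (limma with Benjamini-Hochberg, adjusted p = 0.0483; lower in 2 of 2), while Chga rose. Stox2 beside Enpp6 differed by -0.53 in the Lats2 comparison and was not called (limma with Benjamini-Hochberg, adjusted p = 0.0913; lower in 2 of 2). Irf2 beside Enpp6, Rheb beside Crygn and Nbea beside Dclk1 were not called in any comparison.

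Chga, Gpm6a and Dclk1 are all best known from neural or neuroendocrine cells. The repressor REST silences many neuronal and neuroendocrine genes outside the nervous system. Rest itself was at 12.3 and 10.1 FPKM in the Lats2 controls and at 12.3 and 12.8 FPKM in the libraries labelled cKO. Of 9 genes of REST and its corepressors limma called 0 in the Lats2 libraries (1 at an unadjusted p under 0.05) and 0 in the Yap1/Taz libraries (1 unadjusted; 7 lower with the libraries centred on the endothelial genes, where 5637 of all 11320 genes were), and in bmEC, where 8 were tested, 1 higher (Hdac1) and 1 lower (Hdac2), a share near that of all genes, at log2 differences of 0.33 and -0.42 (0.28 and -0.47, not called, with the libraries centred on the endothelial genes). The part of REST in the level of Chga was not tested. Dissociation stress genes had 1 of 10 called higher (Atf3) and 2 lower (Hspa1a and Hspa1b) in the Lats2 libraries, with sums of 707 and 885 FPKM in the controls and 916 and 775 FPKM in the cKO libraries, Junb being the most abundant.

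The p-values of the context genes set a difference between groups against the spread between libraries of a group, moderated with the spread of all genes tested. The methods call the replicates biological, while the labels do not say how many animals went into each, and the sex-linked genes show that the 2 replicates of each Lats2 group came from different animals. A gene past the threshold in 1 comparison and not in another was not tested for a difference between the comparisons.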

How the data were processed

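Total RNA of sorted bone endothelial cells was sequenced in 16 libraries. The authors aligned reads to GRCm38 with TopHat, counted them with HTSeq 0.6.1 and tested counts with DESeq2 (DESeq2 version not given). The values used here are the FPKM tables as deposited by the authors, whose step from counts to FPKM is not stated. A recovered read is an FPKM value divided by the smallest step of its library at the GENCODE M21 exon length, or at a fitted share of it where values were otherwise not whole (0.683 for Chga). Recovered depth was 11.1 to 14.7 M reads in the wild-type libraries, 4.89 to 7.17 M in the Yap1/Taz libraries and 4.73 to 7.07 M in the Lats2 libraries.

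Each table was fitted on its own with limma 3.58.1 in R 4.3.3 on log2(FPKM + 1), with a trended prior, with a filter that kept genes averaging 1 FPKM or more, a pseudocount of 1 and Benjamini-Hochberg adjustment at 0.05. Python 3.11.15 was used for summaries and figures. The comparisons were bmEC against mpEC, ECKO against control and cKO against control, and 27 date-like symbols were left out. The members and the 27 gene lists were chosen with earlier results of these data known. Alternatives were pseudocounts of 0.1 and 0.5, a filter of 5 FPKM or none, no trend, quantile, median and endothelial centring, a replicate block, the threshold of the study methods (adjusted p under 0.01 and a log2 difference over 0.5) and each library left out. The fit was tested on simulated data.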

Additional observations from a re-analysis of the deposited data

How the results depend on the processing

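Of 14 member results 11 were called. The members were chosen on these values, so a call that stays is no sign of stability. Over 199 alternatives 163 kept direction and call, 29 lost the call, 1 gained it (Crispld1 in bmEC, quantile normalization) and 6 reversed. Centring on the endothelial genes was added after seeing the data.

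In bmEC against mpEC, the count of all genes went from 2682 to 1653 with endothelial centring and to 1335 at the threshold of the study methods. Leaving out 1 library moved the Enpp6 difference between -0.15 and 0.06, with values of 0.0638 without bmEC replicate 1, 0.0426 without bmEC replicate 2, 0.0129 without mpEC replicate 2 and 0.0419 without mpEC replicate 3.

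In the Yap1/Taz comparison, members called went from 3 to 0 without the filter and 1 without the trend. They went to 0 at the threshold of the study methods, and ranged from 0 to 3 with 1 library left out. All genes called went from 148 to 5711 with endothelial centring (5637 lower), 1 without the filter and 17 without the trend. They went to 1 at the threshold of the study methods, and ranged from 1 to 293 with 1 library left out. Crygn reversed to -0.27 with endothelial centring and to -0.12 without ECKO replicate 2, and ranged from -0.12 to 0.34 with 1 library left out.

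In the Lats2 comparison, members called ranged from 0 to 5 and all genes from 0 to 2694 with 1 library left out (932 without cKO replicate 2). All genes went from 2700 to 1389 without the filter and to 257 at the threshold of the study methods. More genes tested, fewer samples or a stricter threshold are part of those alternatives by construction; otherwise the cause was not tested.

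The labels share replicate numbers between groups. With a replicate block, members called were 3, 1 and 5 and all genes called 3072, 45 and 2654 in the 3 comparisons. In the wild-type and Yap1/Taz tables not every sample correlated best with its own number (same-number r 0.307, 0.0876 and 0.102; -0.175, -0.123 and -0.155), and the number was not taken to pair samples. In the Lats2 table the same-number r was 0.0652. With 2 libraries a group the deviations are opposite, so the r of both numbers is 1 value by construction and not 2 matches. The sexes also go with the number in the Lats2 table. Depth limits Chga, Crygn and Dclk1 where they rest on few reads.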
